A study of Danio rerio with 2 samples.

Results

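The 6 neuropeptide genes followed through the cells of this series were *pyya*, *penkb*, *tac1*, *sst1.1*, *npy* and *penka*. All 6 symbols were found among the 36351 genes of the deposited gene list, where they carry the identifiers LL0000022983, LL0000021597, LL0000029898, LL0000029435, LL0000020556 and LL0000021596. For each gene, the cells with 3 or more unique molecular identifiers (UMIs, counts of distinct captured transcripts) were counted, with the type of neuron they fell into and the library they came from. The genes were chosen by these same counts of cells, so the cell numbers, neuron types and library shares are given as descriptions and were not tested.

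The cells came from a single group, sorted for EGFP from dissected trunks of zebrafish embryos at 48 h after fertilization, fixed in methanol and profiled in droplets with 10x Genomics 3′ chemistry. The parents of the embryos were heterozygous for the mutations *evx1* i232 and *evx2* sa140, and every embryo used carried the reporter *Tg(evx1:EGFP)SU2*. In this reporter, *evx1* regulatory sequence and a minimal promoter of mouse *Fos* drive GAL4-VP16, which switches on UAS:EGFP; it marks V0v spinal interneurons and is also expressed ectopically in the notochord. Embryos of all genotypes were pooled, no cell has a genotype label, and there is no separate wild-type or mutant library. The 2 libraries (replicates 1 and 2, called library 1 and library 2 here) share all labels apart from their titles, which name them OtherGFP and AllGFP without explanation. The design text calls them biological replicates, but the labels do not say whether they came from separate clutches.

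Neuropeptides are short secreted signals that neurons cut from longer precursor proteins, store in dense-core granules, and release alongside a fast transmitter such as glutamate, GABA, glycine or acetylcholine. Peptide YY, from *pyya*, and neuropeptide Y, from *npy*, belong to the same family and act on Y receptors. The proenkephalins, encoded in zebrafish by *penka* and *penkb*, are cut into enkephalins, which act on opioid receptors. Substance P and related tachykinins are made from *tac1* and act on tachykinin receptors, and somatostatin, from *sst1.1*, acts on somatostatin receptors. In the spinal cord, such peptides mark small subsets of interneurons and motoneurons, and V0v interneurons themselves are commissural glutamatergic neurons that express *evx1* and *evx2*.

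Library 1 held 18908819 UMIs in 4373 cells and library 2 held 34071583 UMIs in 6223 cells. Within the limits used by the study, 3571 cells of library 1 (median 3669 UMIs) and 4556 cells of library 2 (median 4334 UMIs) were kept, 8127 in all. Of these, 6250 fell into clusters with neuron markers and are called neuron-like, and 1003 were fibroblast-like. The libraries stood apart: the heat-shock gene *hsp70l* was at 6127 counts per 1000000 UMIs (CPM) in neuron-like cells of library 1 and at 45.3 CPM in those of library 2, and most clusters came largely from 1 library. Only 3 barcodes occurred in both libraries, and none of them held a neuropeptide at 3 or more UMIs. Values are therefore given for each library.

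Cells with 3 or more UMIs of any of the 6 genes were rare and made similar shares of all kept cells of both libraries. There were 45 in library 1 (1.26% of its cells) and 58 in library 2 (1.27%), 103 in all. Of these, 102 were neuron-like. Neuron-like cells made 90.3% of kept cells in library 1 and 66.4% in library 2. Of the neuron-like cells alone, 1.40% in library 1 and 1.88% in library 2 had 3 or more UMIs of any of the 6 genes. By gene, these shares in libraries 1 and 2 were 0.683% and 0.793% for *pyya*, 0.496% and 0.562% for *penkb*, and 0.279% and 0.562% for *tac1*. *pyya* reached 3 UMIs in 46 cells, *penkb* in 33, *tac1* in 27 and *sst1.1* in 2, while no kept cell reached it for *npy* or *penka*. Only 5 cells did so for more than 1 of the genes, 2 in library 1 and 3 in library 2. The UMIs of each gene were concentrated in these cells: they held 98.5% of the *pyya* UMIs of both libraries, 98% of those of *penkb* and 93.5% of those of *tac1*. At the threshold, 5 cells had exactly 3 *pyya* UMIs and 10 cells had 2. For *penkb* there was 1 cell with 3 UMIs and there were 4 with 2, and for *tac1* there was 1 cell with 3 and there were 14 with 2.

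**Figure D1:**
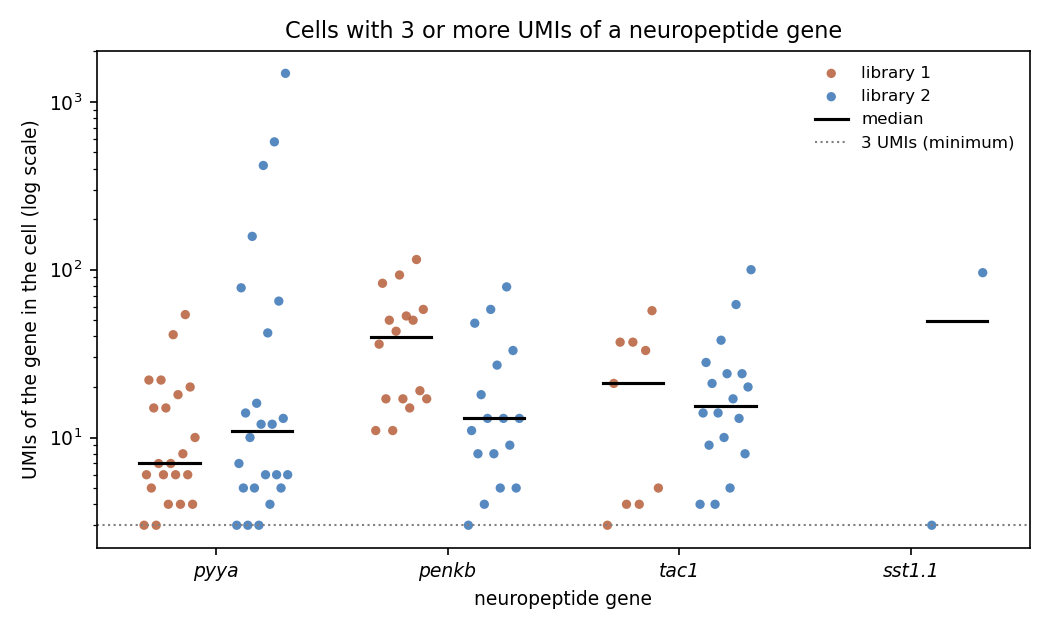
UMIs of the neuropeptide gene (log scale) in each cell that had 3 or more, for *pyya*, *penkb*, *tac1* and *sst1.1* in libraries 1 and 2; each point is a cell and the bar is the median. *pyya* spans 3 to 1480 UMIs in library 2, with its 3 fullest cells above all others, whereas the *penkb* cells of library 1 all lie at 11 UMIs or more.

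Background of the 6 genes from free RNA was low where it could be judged, mostly in library 2, which held 901 of the 1003 fibroblast-like cells. The 102 of library 1 had no UMI of the 6 genes, so background there is less well known. In fibroblast-like cells, which are not a known source of these peptides, at least 1 UMI was found in 2 of 1003 cells for *pyya*, 3 for *penkb* and 2 for *tac1*, at a median of 5336 UMIs per cell, against a median of 4000 UMIs in neuron-like cells. After each cell was thinned to 2000 UMIs, 1.07% of neuron-like cells and 0.217% of fibroblast-like cells had a UMI of *pyya*. For *penkb* these shares were 0.660% and 0.108%, and for *tac1* they were 0.728% and 0.108%. All *pyya*, *penkb* and *sst1.1* cells were neuron-like, as were 26 of the 27 *tac1* cells. The remaining *tac1* cell, from library 2, clustered with the fibroblast-like cells and had 5 *tac1* UMIs among 7079; it also had 8 UMIs of *isl1*, 4 of *isl2a*, 3 of *isl2b* and 3 of *mnx1*, which are motoneuron transcription factors, and 9 of *en1b*. It is left out of the neuron sets below.

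The neuropeptide cells were gathered in few of the 17 clusters into which the neuron-like cells were divided (the 6 genes and the listed genes were not used for that clustering). Cluster 9 held 422 of 6250 neuron-like cells (6.75%) and 60 of the 103 neuropeptide cells. Its levels pointed to the class called mutant-like group 1 below. It remained unnamed because its leading genes held more markers of another class (1) than of that class (0). In library 1, 24 of its 146 cells (16.4%) had 3 or more UMIs of 1 of the 6 genes, and in library 2 it was 36 of 276 (13%). This cluster held 32 of the 33 *penkb* cells, 16 of the 46 *pyya* cells, 14 of the 27 *tac1* cells and both *sst1.1* cells. Cluster 1 held a further 10 *tac1* cells and 7 *pyya* cells among its 292 cells. Its levels pointed to motoneurons, but it was left unnamed for the same reason. Both clusters drew cells from both libraries. The clustering of all cells, which left out only the 6 genes, parted these cells more. There, a cluster of 159 cells held 28 *penkb*, 8 *pyya* and 0 *tac1* cells. Another, of 434 cells, held 15 *tac1*, 11 *pyya* and 4 *penkb* cells.

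**Figure D2:**
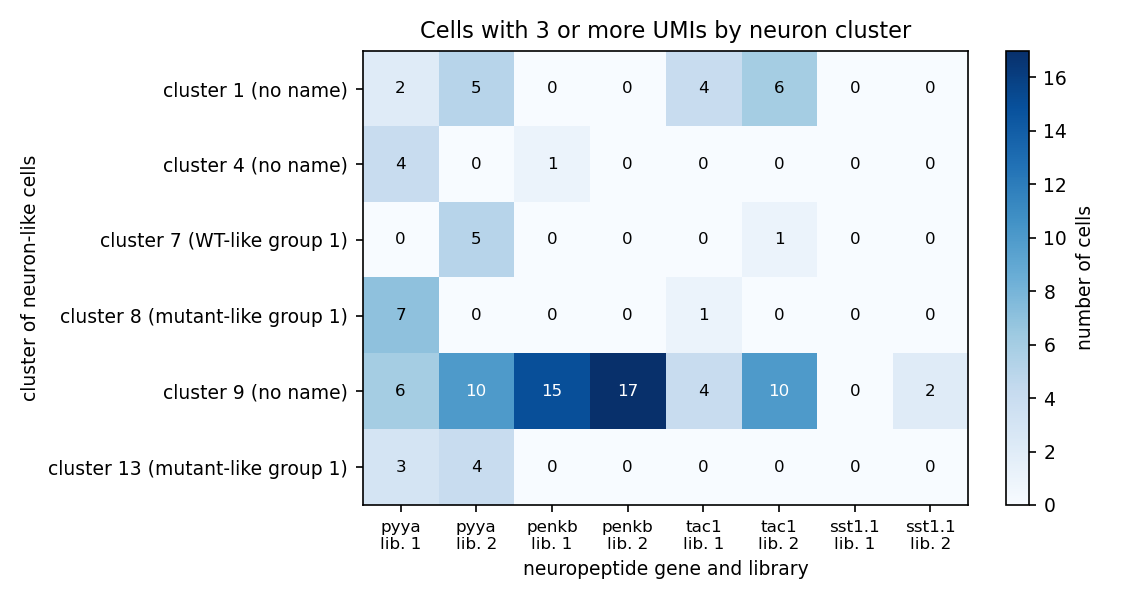
Number of cells with 3 or more UMIs of *pyya*, *penkb*, *tac1* or *sst1.1* in each cluster of neuron-like cells that held any, by library; darker blue is more cells. *penkb* cells sit in cluster 9 in both libraries (15 and 17 cells), *tac1* cells in clusters 9 and 1, and *pyya* cells in 6 clusters.

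*pyya* was the neuropeptide gene with most cells and the widest range among them. Library 1 held 22 *pyya* cells (0.616% of cells, exact 95% interval 0.386 to 0.931%) and library 2 held 24 (0.527%, 0.338 to 0.783%). The cells of library 1 had 3 to 54 *pyya* UMIs with a median of 7, and those of library 2 had 3 to 1480 with a median of 11, so the numbers of cells and the medians of the 2 libraries lay close together. The summed levels did not: *pyya* was at 23.6 CPM in library 1 (exact Poisson interval 21.0 to 26.3) and at 147.5 CPM in library 2 (142 to 153; both intervals cover counting error only). Almost all of that difference was in 3 cells of library 2, which had 1480, 578 and 418 *pyya* UMIs out of 6668, 6891 and 6900 UMIs in all. They held 83.5% of the *pyya* UMIs of their library, and without them its level was 24.4 CPM.

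These 3 cells also shared a second peptide gene. They had 422, 151 and 123 UMIs of si:ch73-380l10.2, a gene named *cartl* in RefSeq (assembly GRCz12tu), whose family encodes CART peptides. Together they carried 696 of its 1897 UMIs in library 2 (36.7%), whereas the other 21 *pyya* cells of that library had 32 and the 22 *pyya* cells of library 1 had 3. The gene was not particular to *pyya* cells. It had 3 or more UMIs in 20 cells of library 1, of which 1 was a *pyya* cell, and in 19 of library 2. A *penkb* cell of library 2, with 9 *penkb* and 0 *pyya* UMIs, had 144. The 3 fullest *pyya* cells had 34, 12 and 17 UMIs of *pnoca*, the precursor of nociceptin, and 1 to 6 UMIs each of the homeobox genes *hmx2* and *hmx3a*. Of the homeobox gene *pou4f1* they had 3, 0 and 12 UMIs. None of them had a UMI of *evx1*, *evx2* or of *slc6a5* and *slc32a1*, the glycine transporter and the vesicular transporter of inhibitory amino acids, and they had 4, 4 and 1 UMIs of the vesicular glutamate transporter gene *slc17a6b*. The next cell by *pyya*, with 158 UMIs, had no si:ch73-380l10.2 UMI and 5 UMIs each of *slc6a5* and *slc32a1*.

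The *pyya* cells were not 1 kind of neuron by their transmitter genes. A vesicular glutamate transporter (*slc17a6a* or *slc17a6b*) was found in 28 of 46 *pyya* cells (60.9%, exact 95% interval 45.4 to 74.9%) and in 37.7% of the 6069 neuron-like cells with no UMI of any of the 6 genes, called member-free neurons below. An inhibitory gene (*slc6a5*, *slc6a1b*, *gad1b* or *gad2*) was found in 23 of the 46 (50%, 34.9 to 65.1%) and in 37.1% of member-free neurons. *slc32a1* was not counted among these genes. *evx1* or *evx2* was found in 13 *pyya* cells (28.3%, 16.0 to 43.5%) and in 60.2% of member-free neurons, at medians of 4250 and 4000 UMIs per cell. In cells thinned to 2000 UMIs, which leaves 43 of the 46 *pyya* cells, the shares were 44.2% and 25.8% for the glutamate transporters, 44.2% and 29.9% for the inhibitory genes, and 25.6% and 45.1% for *evx1* or *evx2*.

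By cluster, the *pyya* cells fell into sets with different companion genes. In the 2 clusters named mutant-like group 1 by their inhibitory markers (a name from markers, which states no genotype), 14 *pyya* cells had 3 to 42 *pyya* UMIs (7 in cluster 8 and 3 in cluster 13 from library 1, and 4 in cluster 13 from library 2). Their GABA transporter gene *slc6a1b* was at 1491 CPM in library 1 and 1505 CPM in library 2, and *pnoca* was at 4055 and 3684 CPM. In cluster 1, 7 *pyya* cells had 3 to 78 UMIs, with the homeobox gene *pou4f1* at 1446 and 1410 CPM in libraries 1 and 2 and no UMI of *slc6a5* or *slc6a1b*. In clusters 4 and 7, 9 *pyya* cells had 3 to 18 UMIs: 4 in cluster 4, all from library 1, and 5 in cluster 7, all from library 2. *slc17a6a* was at 745 CPM in the *pyya* cells of cluster 4 and 211 CPM in those of cluster 7. Cluster and library cannot be told apart there. A *pyya* cell of cluster 7 had 3 UMIs of *slc6a1b* and 25 of *pnoca*. In cluster 9, 16 *pyya* cells held 83.6% of all *pyya* UMIs. Among them were the 3 fullest *pyya* cells of library 2, which had no *slc6a5* UMI. Over all 16 cells, *slc6a5* was found in 9, at 1362 CPM in library 1 and 1053 CPM in library 2, and *pou4f1* was found in 4. Because neuron type is part of how the cells were chosen, these levels carry no test.

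*penkb* cells lay almost all in the same cluster. Library 1 held 16 (0.448% of cells, exact 95% interval 0.256 to 0.727%) and library 2 held 17 (0.373%, 0.218 to 0.597%), and all but 1 were in cluster 9. The cells of library 1 had 11 to 115 *penkb* UMIs with a median of 39.5, and those of library 2 had 3 to 79 with a median of 13, so the ranges overlapped while library 1 lay higher. In sum, *penkb* was at 51.3 CPM in library 1 and 18.5 CPM in library 2. This is the opposite order from *pyya*, and no single cell carried more than 21.2% of the *penkb* UMIs of its library. The library difference cannot be told apart from a difference in the sort or handling.

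Inhibitory and V1-type genes accompanied *penkb*. *slc6a5* was found in 28 of 33 *penkb* cells (84.8%, exact 95% interval 68.1 to 94.9%) and in 30.2% of member-free neurons, and its summed level was 1428 CPM in library 1 and 1677 CPM in library 2, against 172 and 379 CPM in member-free neurons. *en1b*, an engrailed homeobox gene of V1 interneurons, was found in 18 of 33 *penkb* cells (10 of 16 in library 1 and 8 of 17 in library 2) and in 2.37% of member-free neurons. Its level was 857 and 581 CPM in *penkb* cells, against 13.8 and 42.8 CPM in member-free neurons. Counting *foxd3* too, which marks V1 cells as well as neural crest, 21 of 33 *penkb* cells (63.6%, 45.1 to 79.6%) had at least 1 of the pair, compared with 3.84% of member-free neurons. A glutamate transporter gene was found in 5 of 33 *penkb* cells and *evx1* or *evx2* in 9 (27.3%, 13.3 to 45.5%). A factor of V2b and cerebrospinal fluid-contacting (KA) neurons (*gata2a*, *gata3* or *tal1*) was found in 1. All 33 cells could be thinned to 2000 UMIs, and then 78.8% of *penkb* cells and 23.7% of member-free neurons had *slc6a5*, and 48.5% and 2.16% had *en1b*. *en1b* was also among the leading genes of cluster 9, where 32 of 422 cells were *penkb* cells. In the clustering of all cells, *slc6a5* and *en1b* were leading genes of a cluster of 159 cells with 28 *penkb* cells. These genes are thus not shown to be particular to *penkb* cells within their clusters.

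*tac1* cells had the genes of motoneurons. Library 1 held 9 *tac1* cells (0.252% of cells, exact 95% interval 0.115 to 0.478%), with 3 to 57 UMIs and a median of 21. Library 2 held 18 (0.395%, 0.234 to 0.624%), with 4 to 100 UMIs and a median of 15.5. Their summed levels were 15.9 and 22.1 CPM. Among the 26 neuron-like *tac1* cells, 25 (96.2%, 80.4 to 99.9%) had at least 1 motoneuron transcription factor (*isl1*, *isl2a*, *isl2b*, *mnx1*, *mnx2a* or *mnx2b*), against 3.61% of member-free neurons. The same number had at least 1 cholinergic gene (*chata*, *slc18a3a* or *slc5a7a*), against 4.22% of member-free neurons. The vesicular acetylcholine transporter gene *slc18a3a* was at 697 CPM in library 1 and 740 CPM in library 2 in *tac1* cells, against 13.1 and 18.0 CPM in member-free neurons. None of the 26 cells had *slc6a5*, *slc6a1b*, *gad1b* or *gad2*, which allows a share of up to 11.5% (3 counts of 26), whereas 37.1% of member-free neurons did. The inhibitory gene *slc32a1* was not counted there. It had 2 UMIs in 1 *tac1* cell of library 1 and 4 UMIs in 1 *tac1* cell of library 2. A glutamate transporter gene was found in 1 of the 26 and *evx1* or *evx2* in 2. In the 25 *tac1* cells that could be thinned to 2000 UMIs, 92% had a motoneuron factor, against 2.39% of member-free neurons.

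The exception among the *tac1* cells was also a *pyya* cell. This cell of library 1, in cluster 8, had 37 *tac1* and 41 *pyya* UMIs and no UMI of a motoneuron factor or a cholinergic gene. Of the other 25 *tac1* cells, 24 lay in clusters 9 and 1. The remaining cell, of library 2 in cluster 7, had 20 *tac1* UMIs with 7 UMIs of *slc5a7a*, 3 of *mnx2b* and 2 of *mnx1*, and also 4 of *slc32a1*, 2 of *evx2* and 1 of *evx1*. The 14 *tac1* cells of cluster 9 had 13 to 100 UMIs (21 to 57 in library 1 and 13 to 100 in library 2). The 10 *tac1* cells of cluster 1 had 3 to 14 (3 to 5 in library 1 and 4 to 14 in library 2), and the 2 sets overlapped by little, although their median depths were 3944 and 3533 UMIs per cell. Both sets had *slc18a3a*, at 770 CPM in library 1 and 816 CPM in library 2 in the *tac1* cells of cluster 1. The granule protein gene *chga* was at 1916 and 2342 CPM in the *tac1* cells of cluster 9, and at 0 and 449 CPM in those of cluster 1. Conversely *sox4a*, a gene of newly born neurons, was at 5473 and 1591 CPM in the *tac1* cells of cluster 1, and at 0 and 255 CPM in those of cluster 9. *sox4a* was among the leading genes of cluster 1 and was not left out of the clustering. Its difference can therefore follow from the split itself.

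**Figure D3:**
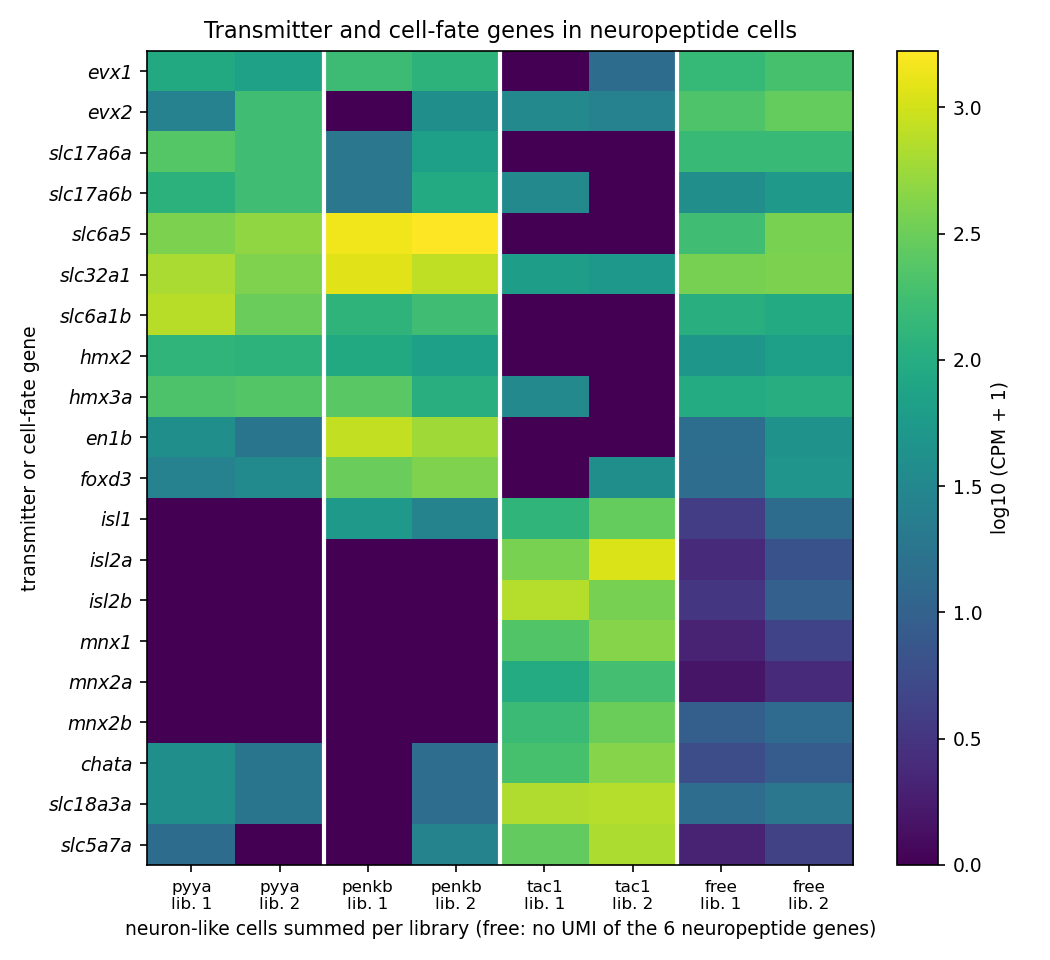
Summed level, as log10 (CPM + 1), of transmitter and cell-fate genes in the neuron-like cells with 3 or more UMIs of *pyya*, *penkb* or *tac1*, and in neuron-like cells with no UMI of any of the 6 genes (free), by library. *slc6a5* and *en1b* are brightest in *penkb* cells, the *isl*, *mnx* and cholinergic genes in *tac1* cells, and *pyya* cells show both glutamate and inhibitory genes.

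The remaining members were nearly absent. *sst1.1* had 3 or more UMIs in 2 cells, both from library 2, with 96 and 3 UMIs, and its level was 0.15 CPM in library 1 and 5.12 CPM in library 2. The cell with 96 UMIs held 91.4% of all *sst1.1* UMIs. It had 100 UMIs of *nppc*, which encodes a natriuretic peptide, 17 of *tac3a*, a tachykinin gene, and 8 of *tal1*, 8 of *pkd1l2a*, 7 of *pkd2l1* and 3 of *gata2a*, which are genes of cerebrospinal fluid-contacting neurons, in which somatostatin is a known peptide. The other *sst1.1* cell was also the fullest *penkb* cell of its library, with 79 *penkb* UMIs, 16 of *slc6a5* and 7 of *slc32a1*. *npy* had 1 UMI in library 1 and 2 in library 2, in 3 cells, and *penka* had 0. A count of 0 cells in 8127 allows a share of up to 0.0369% of cells with 3 or more UMIs of either gene, so rarer *npy* or *penka* cells were not detectable at this depth.

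Cells with more than 1 of these peptides were almost all in cluster 9. There, 3 cells had 3 or more UMIs of both *pyya* and *penkb*, with 5 and 17 UMIs in library 1, and 5 and 27, and 3 and 13, in library 2. They make 6.52% of the *pyya* cells and 9.09% of the *penkb* cells. No cell reached 3 UMIs of both *penkb* and *tac1*.

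Genes outside the rule were then compared between neuropeptide cells and member-free neurons, on UMIs summed per library and cell set, with edgeR's quasi-likelihood test and Benjamini-Hochberg adjustment over all genes tested. Each set took only cells with 3 or more UMIs of that gene and of no other member: 20 and 22 *pyya* cells, 15 and 14 *penkb* cells and 8 and 17 *tac1* cells in libraries 1 and 2, against 3141 and 2928 member-free neurons. *tac1* had fewer than 10 cells in library 1, so its test was added after seeing the data. With library as a term, the p-values rest on differences between cell sets that were not the same in the 2 libraries. This spread was pooled over all sets of the fit and shared across genes. It covers nothing beyond these 2 libraries. Genes with low counts were filtered out first. A gene rare in member-free neurons could thus be tested only where a neuropeptide set was high, which largely fixed a higher call. Of 1771 genes tested in *pyya* cells, 228 were higher (12.9%) and 199 lower (11.2%). In *penkb* cells 342 of 1771 were higher (19.3%) and 311 lower (17.6%). In *tac1* cells 118 of 1580 were higher (7.47%) and 76 lower (4.81%). The calls depended on which neurons were set against these cells. Against member-free neurons of the same clusters, weighted to the same proportions, more genes passed the filter and fewer were called in *pyya* and *penkb* cells. Of 5138 genes, 20 were higher in *pyya* cells (0.389%) and 10 lower (0.195%), and 103 were higher in *penkb* cells (2%) and 159 lower (3.09%). Of 5782 genes, 119 were higher in *tac1* cells (2.06%) and 141 lower (2.44%). These same-cluster neurons were drawn from the member-free neurons, which stayed in the same fit. The same cells thus entered several sums that the fit treated as separate. In libraries 1 and 2 they numbered 106 and 638 for *pyya*, 125 and 232 for *penkb*, and 124 and 394 for *tac1*. Calls kept or lost against them are descriptions.

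Of the 69 other neuropeptide genes listed, 59 were in the gene list, 12 of these had no UMI, and 3 passed the filter on low counts in the tests (*pnoca*, *adcyap1b* and *calca*). *pnoca* was higher in *pyya* cells, at 2231 CPM in library 1 and 1513 CPM in library 2, against 209 and 148 CPM in member-free neurons (log2 fold change 3.35 ± 0.27 SE, adjusted p = 1.78e-07, n = 2 libraries, edgeR). Against neurons of the same clusters it was still higher, by 1.26 on the log2 scale (adjusted p = 0.005). In *penkb* cells, *pnoca* was at 1783 and 847 CPM, which was also higher than in member-free neurons (2.87 ± 0.29, adjusted p = 2.24e-07), and by 5.56 against neurons of the same clusters. *pnoca* was found in 18 of 33 *penkb* cells (13 of 16 in library 1 and 5 of 17 in library 2), in 15 of 46 *pyya* cells and in 6.54% of member-free neurons. It was found in none of the 26 *tac1* cells, which allows a share of up to 11.5%, and its summed level in *tac1* cells was at least 6.18-fold lower than in member-free neurons (against a floor of 3 counts over both libraries). The *tac1* call was lost against neurons of the same clusters (adjusted p = 0.478).

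The other peptide genes split the sets further. *adcyap1b*, a precursor of PACAP and the most widespread peptide gene here with 588 cells at 3 or more UMIs, was lower in *penkb* cells, with 1 UMI in each library (19.2 and 16.6 CPM, against 142 and 205 CPM; log2 fold change -3.26 ± 0.91 SE, adjusted p = 0.00776, edgeR). When cells with 2 *penkb* UMIs were added, this call was lost (-0.91, adjusted p = 0.169). *calca*, the precursor of calcitonin and its related peptide, was higher in *tac1* cells, at 258 and 365 CPM against 0.42 and 1.65 CPM in member-free neurons (8.21 ± 1.14, adjusted p = 1.67e-05, edgeR). With 0 UMIs in *pyya* and *penkb* cells, *calca* passed the filter only through *tac1* cells, so a higher call there was nearly fixed. It was found in 15 of 26 *tac1* cells (57.7%, exact 95% interval 36.9 to 76.6%) and in 10 of 6069 member-free neurons. Outside the tests, 35 of the 59 genes had no cell at 3 or more UMIs, 19 had 1 to 9 such cells and 5 had 10 or more. *pnoca* had 355, *uts2a*, a urotensin gene, had 24, *pnocb* had 14 and *calca* had 10. Of the 5 *penkb* cells with a *uts2a* UMI, all were from library 1.

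Some peptide processing and granule genes were higher in the neuropeptide cells, and most of these calls were lost against neurons of the same clusters. The sets were not tested against each other. Of 19 such genes listed, 9 passed the filter on low counts in the *pyya* and *penkb* tests and 10 in the *tac1* test. Genes low in member-free neurons, such as *pcsk1* (17.3 and 20.9 CPM), could pass only through cell sets where they were high. Their direction was then largely fixed by the filter, so the counts of higher and lower genes are descriptions and no support for enrichment. In *pyya* cells, 5 of 9 tested genes were higher and 0 lower, where 12.9% of all genes tested were higher and 11.2% lower, with a median log2 fold change of 1.42, against -0.04 over all genes tested. *vgf*, a granule protein gene, was at 288 and 314 CPM in *pyya* cells, against 38.7 and 44.9 CPM in member-free neurons (2.81 ± 0.32 SE, adjusted p = 4.93e-06, edgeR). *scg2b*, a secretogranin gene, was higher by 2.62 ± 0.26, *pcsk1*, a proprotein convertase gene, by 2.17 ± 0.68, its inhibitor gene *pcsk1nl* by 1.89 ± 0.39, and *cpe*, a carboxypeptidase gene, by 1.42 ± 0.28. In *penkb* cells, 6 of 9 were higher and 0 lower, where 19.3% of all genes tested were higher and 17.6% lower (median 1.91, against 0.00 over all genes): *pcsk1* by 3.10 ± 0.67, *vgf* by 2.78 ± 0.37, the chromogranin genes *chgb* by 2.64 ± 0.50 and *chga* by 2.48 ± 0.41, *scg2b* by 1.91 ± 0.32 and *cpe* by 1.35 ± 0.31.

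In *tac1* cells, 2 of 10 processing genes were higher and 0 lower, where 7.47% of all genes tested were higher and 4.81% lower (median 0.43, against -0.02 over all genes). *chga* was at 1104 and 1684 CPM in *tac1* cells, against 30.2 and 53.3 CPM (5.07 ± 0.31 SE, adjusted p = 2.16e-11, edgeR), and *vgf* was higher by 1.84 ± 0.55. Against neurons of the same clusters, the edgeR calls left were *scg2b* in *pyya* cells (1.06, adjusted p = 0.0498), *chgb* in *penkb* cells (1.62, adjusted p = 0.0223) and *chga* in *tac1* cells (3.78), while *vgf* in *tac1* cells turned to -0.10 (adjusted p = 0.95). The calls lost there in *pyya* cells were *cpe* (adjusted p = 0.132), *pcsk1* (0.751), *pcsk1nl* (0.486) and *vgf* (0.198), and in *penkb* cells *chga* (0.290), *cpe* (0.523), *pcsk1* (0.154), *scg2b* (0.936) and *vgf* (0.892).

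Of the 24 listed receptor genes, 23 were in the gene list and 2 passed the filter. Both were low in member-free neurons and could pass only through cell sets where they were high. Their higher calls against all member-free neurons were thus largely fixed. *oprl1*, the nociceptin receptor gene, was higher in *pyya* cells, at 331 and 209 CPM against 48.3 and 26.4 CPM in member-free neurons (2.84 ± 0.38 SE, adjusted p = 2.91e-05, edgeR; 1.53, adjusted p = 0.00636, against neurons of the same clusters). In *penkb* cells it was higher by 2.15 ± 0.49, a call lost against neurons of the same clusters (adjusted p = 0.243). *npy2r*, a Y receptor gene, had 10 and 11 UMIs in *penkb* cells of libraries 1 and 2, against 29 and 113 in all member-free neurons (5.23 ± 0.85, adjusted p = 7.84e-05), and this call was lost too (adjusted p = 0.108). *tacr2*, a tachykinin receptor gene with too few counts for the test, was found in 10 of 33 *penkb* cells (6 of 16 and 4 of 17) and in 3 of 6069 member-free neurons. This gene was singled out after its values were seen.

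**Figure D4:**
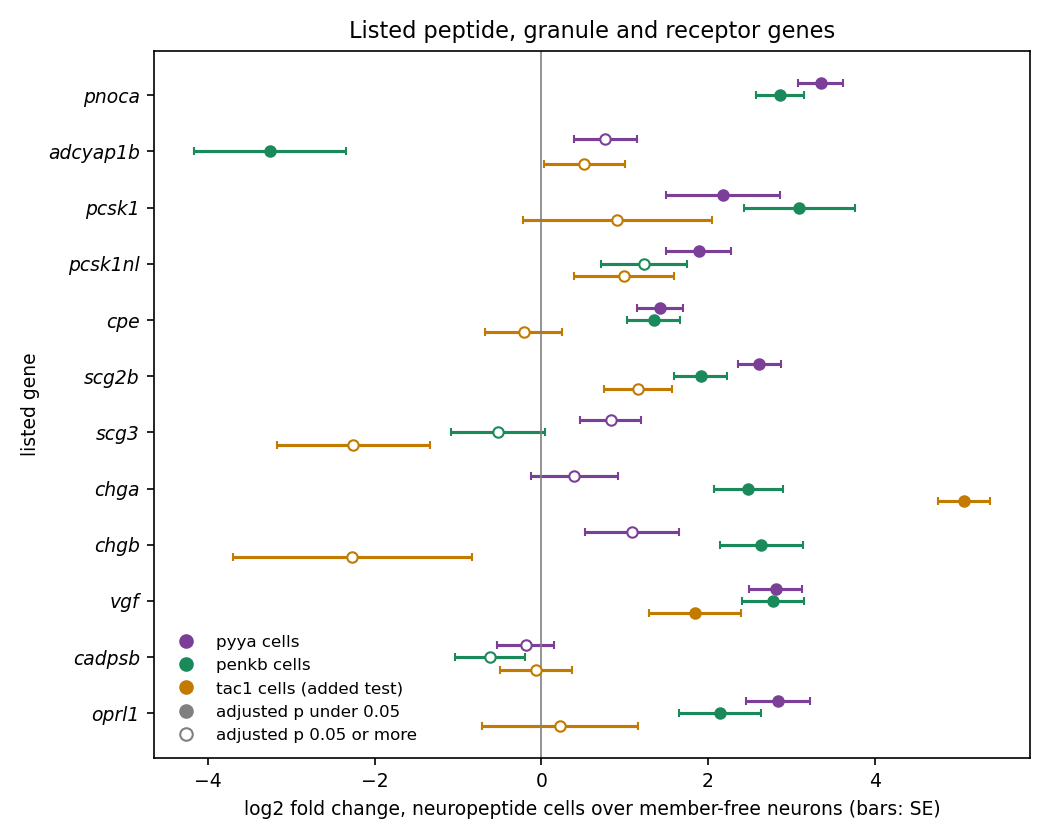
Log2 fold change (neuropeptide cells over member-free neurons; bars are the SE from edgeR, 2 libraries) of listed peptide, processing and receptor genes in *pyya*, *penkb* and *tac1* cells; filled points have an adjusted p under 0.05. *pnoca* lies at 3.35 in *pyya* cells and 2.87 in *penkb* cells, and *chga* at 5.07 in *tac1* cells; *calca*, *npy2r* and the *tac1* value of *pnoca*, which had 0 UMIs, are not drawn.

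Among all genes tested with edgeR in *pyya* cells, the calls with the largest rise included *pvalb6*, a parvalbumin gene (5.09 ± 0.62 SE, adjusted p = 1.29e-05), which rested on 3 UMIs in library 1 and 68 in library 2, of which the fullest *pyya* cell had 51 and the next 12. *npas4a*, an activity-dependent transcription factor gene, had 13 and 10 UMIs (3.79 ± 0.69, adjusted p = 0.000722) and *calb2a*, the calretinin gene, had 3 and 16 (3.77 ± 0.63, adjusted p = 0.000312). *pvalb6*, *npas4a* and *calb2a* were low in member-free neurons and could pass the filter on low counts only through cell sets where they were high. Their higher calls against all member-free neurons were thus largely fixed. *her15.1*, a target gene of Notch signalling, was lower (-4.09 ± 0.79), with 2 and 0 UMIs, and so was the nuclear receptor gene *nr2f5* (-3.83 ± 0.64), with 1 UMI in each library. Against neurons of the same clusters, *pvalb6* (3.51) and *her15.1* (-4.85) were still called, whereas *npas4a* (adjusted p = 0.0736), *calb2a* (0.273) and *nr2f5* (0.576) were not. The filter was applied there too, so the *pvalb6* call is no separate support. The fate genes *pou4f1*, *plpp4* and *esrrb* also lay among the largest differences and are given as levels. *pou4f1* was at 173 and 495 CPM in *pyya* cells, against 8.69 and 25.4 CPM in member-free neurons, *plpp4* at 130 and 143 CPM against 10.6 and 8.89 CPM, and *esrrb* at 0 and 19.0 CPM against 421 and 602 CPM.

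In *penkb* cells the edgeR calls with the largest rise were si:dkey-183i3.9 (7.56 ± 0.73 SE), the dehydrogenase gene *sdr16c5b* (7.20 ± 0.85), *camkvb*, which encodes a vesicle-associated kinase-like protein (6.50 ± 0.75), *calb2a* (6.10 ± 0.52) and zgc:92912, named *vamp1b* in RefSeq, a synaptic vesicle gene (5.88 ± 0.29). zgc:92912 was the most precise of these, at 1035 and 997 CPM in *penkb* cells, against 14.3 and 21.3 CPM in member-free neurons. All 5 were at 1.86 to 21.3 CPM in member-free neurons and could pass the filter on low counts only through cell sets where they were high. Their higher calls against all member-free neurons were thus largely fixed. All 5 were still called against neurons of the same clusters, at 2.06 to 6.29 on the log2 scale. The filter on low counts was applied there too, so these calls are no separate support. The thioredoxin gene *txn* and the transcription factor gene *ebf3a* had no UMI in *penkb* cells, which puts them at least 13.1-fold and 9.28-fold lower, and neither was called against neurons of the same clusters (adjusted p = 0.260 and 0.0915). The subset marker *scxa*, given as a level, had none either, against 147 and 153 CPM.

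In *tac1* cells the edgeR calls with the largest rise, besides *calca*, were the collagen gene *col19a1* (8.74 ± 1.22 SE), the metalloproteinase gene *mmp17b* (8.70 ± 1.13) and *cacna2d1a*, which encodes a subunit of calcium channels (8.06 ± 1.25). Each had 6 to 25 UMIs per library in *tac1* cells, and each was still called against neurons of the same clusters (5.20 to 6.41). The filter on low counts was applied there too, so the same-cluster calls are no separate support. In member-free neurons they were at 0.34 to 1.34 CPM and could pass the filter on low counts only through cell sets where they were high. Their higher calls against all member-free neurons were thus largely fixed. The choline transporter gene *slc5a7a*, given as a level, was at 331 and 679 CPM, against 1.01 and 3.31 CPM. The homeobox genes *otpa*, *otpb* and *nkx1.2lb* had no UMI in *tac1* cells and were at least 84.9-fold, 11.4-fold and 9.87-fold lower than in member-free neurons, where *otpa* was at 2417 and 2463 CPM. The *otpb* call was lost against neurons of the same clusters (adjusted p = 0.100).

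Markers of other cell types were summed in the same cells. Over both libraries all 9 markers of pancreatic and enteroendocrine cells, in which peptide YY and somatostatin genes are also known, were at 0 in *pyya*, *penkb*, *tac1* and *sst1.1* cells, as were all 4 of macrophages and all 4 of endothelium. Markers of Rohon-Beard and dorsal root ganglion neurons, some shared with other neurons, summed to 443 and 454 CPM in *tac1* cells, against 67.9 and 97.4 CPM in member-free neurons, with 5 of the 8 genes at 0. For *pyya* cells they summed to 272 and 85.5 CPM. Muscle markers summed to 648 and 368 CPM in *pyya* cells, 553 and 686 CPM in *penkb* cells and 475 and 571 CPM in *tac1* cells, against 521 and 495 CPM in member-free neurons. Blood markers summed to 25.9 and 231 CPM in *pyya* cells, 35.7 and 158 CPM in *penkb* cells and 0 and 312 CPM in *tac1* cells. In member-free neurons blood markers summed to 29.8 and 611 CPM. Neural crest and pigment markers summed to 304 and 396 CPM in *penkb* cells, against 14.2 and 48.2 CPM in member-free neurons, and *foxd3*, which is also a V1 marker, was the sole one of the 5 found there. Epidermis markers summed to 0 and 238 CPM in *penkb* cells, against 13.2 and 60.3 CPM. Their part in the results was not tested.

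The genes whose pattern was most like each member over 32 sums of cells (clusters by library) are given as a description, since clusters share libraries and depth. For *pyya* these were *nefmb*, *pcdh1a* and *cacnb3a* (Pearson r of 0.90, 0.89 and 0.89 on log2 (CPM + 10)). For *penkb* they included *uts2a* and *calb2a* (0.97 and 0.96), for *tac1* they were *chata*, *slc18a3a* and *tac3a* (0.95, 0.93 and 0.91), and for *sst1.1* they were *nmu*, *crhb* and *nppc* (0.89, 0.84 and 0.80). Likeness over sums is not presence in the same cells: *tac3a* had no UMI in the 26 *tac1* cells, and *nmu* and *crhb* had none in the 2 *sst1.1* cells.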

How the data were processed

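UMI counts per gene and cell, as deposited by the authors, came from Cell Ranger 4.0.0 (named, with Partek, in the submitters' processing notes) and the Lawson Lab annotation; no genome build is given in the sources used here, so no coordinates are printed. They were whole numbers without normalization. Cells with at most 12000 UMIs, 500 to 2500 genes and at most 6% mitochondrial UMIs were kept; multiplets were removed only through these limits, with no doublet caller. Counts were scaled to CPM, logged and clustered in scanpy 1.11.5 and igraph 0.11.9 (2000 highly variable genes, 30 principal components, 15 neighbours, Leiden resolution 1.0, seed 1), first all cells (without the 6 genes), then neuron-like cells (without 231 listed genes). A neuron-like cluster had at least 4 of 6 neuron markers at 100 CPM. Median depths and totals per library stand in the report; exact binomial and Poisson intervals (95%) and the limit that a count of 0 allows (3 counts) cover counting error only.

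UMIs were summed per library and cell set and compared by two-sided quasi-likelihood F tests of edgeR 4.0.16 (R 4.3.3), after filterByExpr and TMM scaling, with library as a term and a threshold of 0.05; members were left out, transmitter and fate genes were given as levels, and the SE is the log2 fold change divided by the square root of F. The script was tested on simulated data. The named genes were the 5 highest and 3 lowest calls of each set with the same sign in both libraries, the listed genes that passed, and the 3 genes most like each member; 1 gene that this rule names is not reported here. DESeq2 1.42.0, no filter, other UMI and mitochondrial limits, no library term and neurons of the same clusters were the alternatives. The members and lists were chosen with earlier results of these data known.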

Additional observations from a re-analysis of the deposited data

Results flagged for a closer look

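Barcodes outside the limits on depth, genes or mitochondrial UMIs were not used in the comparisons, yet some held these genes at levels above any fibroblast-like cell. The highest *pyya* count in such a barcode was 1803, in a cell of library 2 with 13338 UMIs that also had 344 UMIs of si:ch73-380l10.2, as the 3 fullest kept *pyya* cells did. The highest *penkb* count was 97, in a cell of library 2 with 19 UMIs of *slc6a5*. In library 1, barcodes with 39 and 79 *penkb* UMIs had 5 and 2 UMIs of *slc6a5*. In library 2, barcodes with 45 and 21 *penkb* UMIs had no *slc6a5* UMI but 10 and 7 UMIs of *slc18a3a*. These last barcodes had 10375 and 16727 UMIs in all and were over the upper limits. The highest *tac1* count was 41, in a barcode of 40163 UMIs. The highest *sst1.1* count was 81, in a cell of library 2 with 114 UMIs of *nppc*, 6 of *pkd2l1* and 2 of *gata2a*. The highest *npy* count was 7, in a barcode of library 2. In all, 14 *pyya* cells, 9 *penkb* cells and 18 *tac1* cells lay outside the limits, of which 10, 6 and 13 were over the upper limits, where multiplets would lie.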

How the results depend on the processing

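Under other UMI and mitochondrial limits there were 35 to 60 *pyya* cells, 30 to 42 *penkb* cells, 1 to 4 *sst1.1* cells, 0 or 1 *npy* cell and 0 *penka* cells. *tac1* had 21 to 45, with 41 cells at 2 or more UMIs and 45 over all deposited barcodes, against 27. Leaving out a library gave 22 to 24 *pyya*, 16 to 17 *penkb*, 9 to 18 *tac1* and 0 to 2 *sst1.1* cells, and the share of *tac1* cells that were neuron-like was 94.4 to 100%, against 96.3%. Without the library term (the replicate block), edgeR called 224 genes in *pyya* cells, against 427. Against neurons of the same clusters it called 30 in *pyya* and 262 in *penkb* cells, against 653. With mitochondrial genes taken by prefix only, an alternative added after seeing the data, it called 345 in *tac1* cells, against 194. The split moved as well: without the filter on low counts, 117 genes were higher and 293 lower in *pyya* cells and 209 and 534 in *penkb* cells, and DESeq2 gave 199 and 109 in *pyya* cells. Of 326 values of named genes under alternatives with a test, 299 kept their call, 26 lost it (18 of them against neurons of the same clusters) and 1 turned, *vgf* in *tac1* cells (-0.10); the cause was not tested. None of 58 within-library values turned, all of them in *pyya* and *penkb* cells. Genes named for the size of their change were chosen to have the same sign in both libraries, so their values could not turn. Few cells per set and 2 libraries limit every comparison.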
